A study of Homo sapiens with 48 samples.

Results

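The MYC, MAX and MXD network is the set of transcription factors that share MAX or MLX as a partner. Its 10 genes examined here were chosen by symbol from the 33892 rows of the count table: MYC, MYCL, MYCN, MAX, MXD1, MXD3, MXD4, MXI1, MNT and MLX. Each of the 10 has a single row. The study measured RNA in 48 libraries of 8 established human cancer cell lines to follow the response to a block of the proteasome, which breaks down proteins marked with ubiquitin. By tumour of origin these were RKO and DLD-1 (colon), H-23 and H-1299 (lung), PANC-1 and CAPAN-2 (pancreas), and H-929 and RPMI (multiple myeloma). Each line received carfilzomib, an irreversible proteasome inhibitor, or the solvent DMSO for 24 h, with 3 biological replicates in each of the 16 groups. The labels set the dose in each line at the IC50 for proteasome activity and do not print the concentrations. All lines were grown in dishes, and each library is a bulk culture, so a change in the share of cells that express a gene and a change in RNA per cell cannot be told apart.

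MYC, MYCL and MYCN are basic helix-loop-helix leucine zipper proteins that bind DNA as dimers with MAX, mostly at the E-box CACGTG, and raise transcription of genes for ribosome assembly, nucleotide synthesis and the cell cycle. MXD1, MXD3, MXD4, MXI1 and MNT also pair with MAX, bind the same sites and recruit SIN3 and histone deacetylases, which lowers transcription. MLX pairs with some MXD proteins and with MLXIP (MondoA) and MLXIPL (ChREBP), which sense sugar phosphates. MYC protein is itself a short-lived substrate of the proteasome, and MYC is rearranged or highly expressed in multiple myeloma. The values below are RNA levels and say nothing about protein.

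The libraries held between 9.12 and 64.4 M counts. The lowest totals were those of the H-929 carfilzomib libraries, 9.12 to 9.93 M against 14.6 to 18.9 M with DMSO. All 8 plasma cell markers reached at least 1 CPM (counts per 1 M counts of the library) in H-929 and RPMI, where their summed level was 10400 to 10900 and 6460 to 7350 CPM with DMSO and 4720 to 5060 and 1430 to 1770 CPM with carfilzomib. In the other lines with DMSO that sum was 11.8 to 421 CPM. Of 5 colon epithelium markers, 1 reached 1 CPM in RKO and 3 in DLD-1, and of 3 lung epithelium markers none did in H-1299 and 2 did in H-23. These markers were not particular to their lines. CAPAN-2 also had 3 colon markers at 1 CPM. With DMSO the lung markers summed to 3.44 to 4.3 CPM in H-23 and to 40.4 to 44 CPM in H-929. The 10 most abundant genes took 6.45% to 6.78% of the counts with DMSO and 11.8% to 13.2% with carfilzomib in H-929, and 7.16% to 7.81% and 11.5% to 11.9% in RPMI. The part of these shifts in the results below was not tested.

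The promoters of 3 members are shown because the results turn on them: MXD1, which rose in the most lines without a fall in any, MXD4, which rose in as many lines but fell in PANC-1, and MYCL, which had the largest rise. Each sequence runs from 250 bases before to 50 bases after the gene start in RefSeq on GRCh38.p14, 5′ to 3′ on the strand of the gene. GENCODE 29, used for gene spans and exon lengths, puts the start of all 3 genes further upstream than these RefSeq starts. The windows are chr2:69914859-69915158 on the plus strand for MXD1, chr4:2262060-2262359 on the minus strand for MXD4 and chr1:39901868-39902167 on the minus strand for MYCL. Capitals mark a match to a searched motif.
MXD1: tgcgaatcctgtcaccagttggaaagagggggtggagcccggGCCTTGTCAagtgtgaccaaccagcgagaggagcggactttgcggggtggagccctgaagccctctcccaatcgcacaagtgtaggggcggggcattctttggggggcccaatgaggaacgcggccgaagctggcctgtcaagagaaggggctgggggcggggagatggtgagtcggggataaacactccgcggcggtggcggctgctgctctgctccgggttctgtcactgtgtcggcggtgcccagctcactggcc
MXD4: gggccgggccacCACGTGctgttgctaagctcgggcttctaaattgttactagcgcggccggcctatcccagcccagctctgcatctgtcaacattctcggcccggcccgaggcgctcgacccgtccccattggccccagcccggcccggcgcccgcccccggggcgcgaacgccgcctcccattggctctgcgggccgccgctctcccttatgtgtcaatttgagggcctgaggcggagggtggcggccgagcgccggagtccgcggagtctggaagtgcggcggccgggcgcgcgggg
MYCL: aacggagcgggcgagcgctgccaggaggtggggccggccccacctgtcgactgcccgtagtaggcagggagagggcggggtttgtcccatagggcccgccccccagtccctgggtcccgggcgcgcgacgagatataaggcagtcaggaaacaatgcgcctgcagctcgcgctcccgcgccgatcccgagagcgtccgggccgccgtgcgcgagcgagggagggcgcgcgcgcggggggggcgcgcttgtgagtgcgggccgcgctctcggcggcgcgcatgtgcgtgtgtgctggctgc

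Both strands were searched for the E-box CACGTG, the AP-1 site TGACTCA, the ATF4-CEBP element TGATGNAA and the antioxidant response core TGACNNNGC, which can overlap one another. The E-box stood in MXD4 at position -238 from the gene start, in MNT at -193 and in MLX at -50, and in 7.26% of 35116 promoters of the same length. The antioxidant response core stood in MXD1 at -208, read on the reverse strand, and in MLX at 27. That core was present in 13.3% of all promoters. The AP-1 site was found in MXD3 at -79 and in 4.95% of all promoters. The ATF4-CEBP element was found in no window of the 9 members examined and in 3.62% of all promoters. The MYC promoter was not analysed here. A match is a run of letters in the window, and it was not tested for binding.

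Without drug, MYC was by far the most abundant MYC family RNA in every line. On one scale for all libraries, its DMSO level was 1165 CPM in RPMI, 943 CPM in H-929 and 543 CPM in RKO. It was 236 CPM in H-1299, 214 in CAPAN-2, 174 in H-23, 155 in DLD-1 and 66.0 in PANC-1. Neighbours in that order did not overlap except H-1299 and CAPAN-2, and the highest mean was 17.6 times the lowest. MYC made up between 95.4% and 99.85% of the summed MYC family level per kb of exon in the DMSO groups.

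MYCL and MYCN were low. MYCL ranged from 15.7 CPM in RPMI through 10.02 in DLD-1 and 6.93 in H-23 to 0.584 in H-1299, and RKO, H-929, CAPAN-2 and PANC-1 lay between 5.38 and 3.71 CPM with overlapping neighbours. MYCN reached 17.3 CPM in RPMI, 1.76 in H-23 and 1.37 in DLD-1. MYCN had no count in any of the 6 libraries of RKO, H-1299 and CAPAN-2, where 3 counts, the limit that a count of 0 allows, correspond to at most 0.213 CPM. In PANC-1 and H-929 it had at most 6 counts in a library.

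The partners and antagonists varied less between lines than the MYC family. MAX, the obligate partner of the MYC proteins, ranged from 59.5 CPM in RKO to 19.3 in PANC-1, a 3.08-fold range. RKO and CAPAN-2 (55.2 CPM) stood above the rest. MXD1 had the widest range among the antagonists, from 37.3 CPM in RKO, 30.2 in DLD-1, 25.2 in H-929, 20.8 in H-1299, 14.4 in RPMI, 11.3 in CAPAN-2 and 6.64 in PANC-1 to 4.70 in H-23, 7.93-fold in all, and no neighbours in this order overlapped. MXI1 was highest in the myeloma lines, 70.5 CPM in RPMI and 63.0 in H-929, and lowest in H-23 with 24.1 CPM. MXD4, MNT and MLX were highest in H-929, at 72.4, 72.7 and 90.1 CPM, with MNT in RKO (71.8 CPM) overlapping H-929. MXD3 was highest in CAPAN-2 at 30.3 CPM and lowest in RKO at 10.3 CPM.

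Per kb of exon, MYC stood above all other members in every line, from 388 CPM per kb in RPMI to 22 in PANC-1, while the largest per kb level of another member was 21.2, that of MLX in H-929. The DMSO level of all 10 members differed between lines in the joint fit, as did that of 97.6% of all genes tested, so a difference in level is no particular property of these genes.

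**Figure D1:**
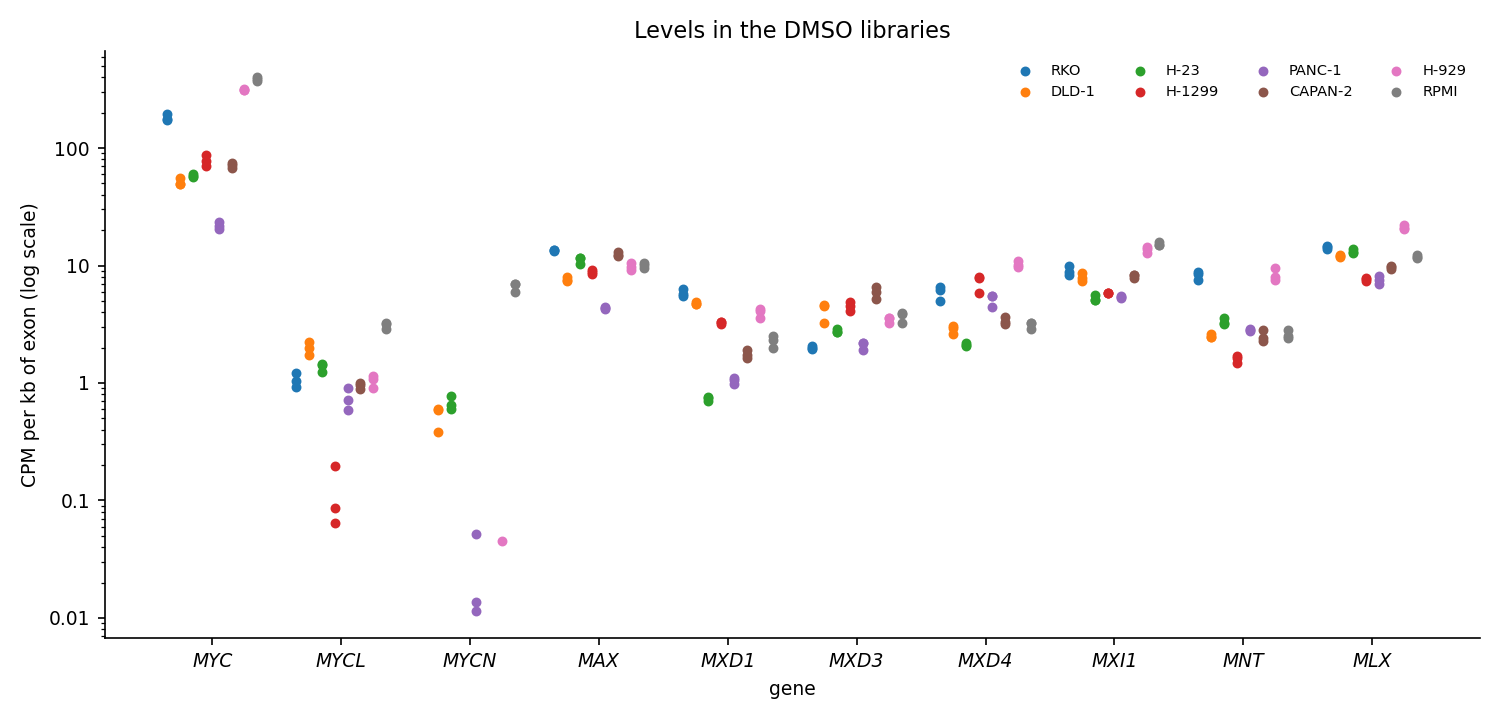
Level of each member in the DMSO libraries, in CPM per kb of exon on a log axis, with 3 points per line. MYC reached 388 CPM per kb in RPMI and stood above the other members in each line, and MYCN libraries at 0 cannot be drawn on this axis and are left out.

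Treatments were compared line by line by the quasi-likelihood test of edgeR, and a gene was called at a Benjamini-Hochberg adjusted p under 0.05 over all genes of the line. Of 75 tests of a member in a line, 30 were called higher and 16 lower, that is 40% and 21.3%. Over all genes, 20.8% of the tests were called higher and 21.1% lower. The share of lower calls among the members was thus close to that of all genes. In RKO, 1 of 9 members was called higher and 0 lower, where 3.62% of all genes were higher and 5.28% lower, and 8 of 9 members had no call. DLD-1 had 3 of 10 higher and 1 lower, against 10.9% and 12.1% of all genes. In H-23, 6 of 10 were higher and 2 lower, against 17.7% and 16.2%. H-1299 had 3 of 9 higher and 5 lower, against 29.8% and 31.3%. In PANC-1, 5 of 9 were higher and 1 lower, against 20.5% and 18.2%. CAPAN-2 had 4 of 9 higher and 2 lower, against 25.7% and 26.7%. In H-929, 4 of 9 were higher and 2 lower, against 26.4% and 26.2%, and in RPMI 4 of 10 were higher and 3 lower, against 31.3% and 32.2%. MYCN alone was not tested in the 5 lines with 9 members, having failed the filter on low counts.

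**Figure D2:**
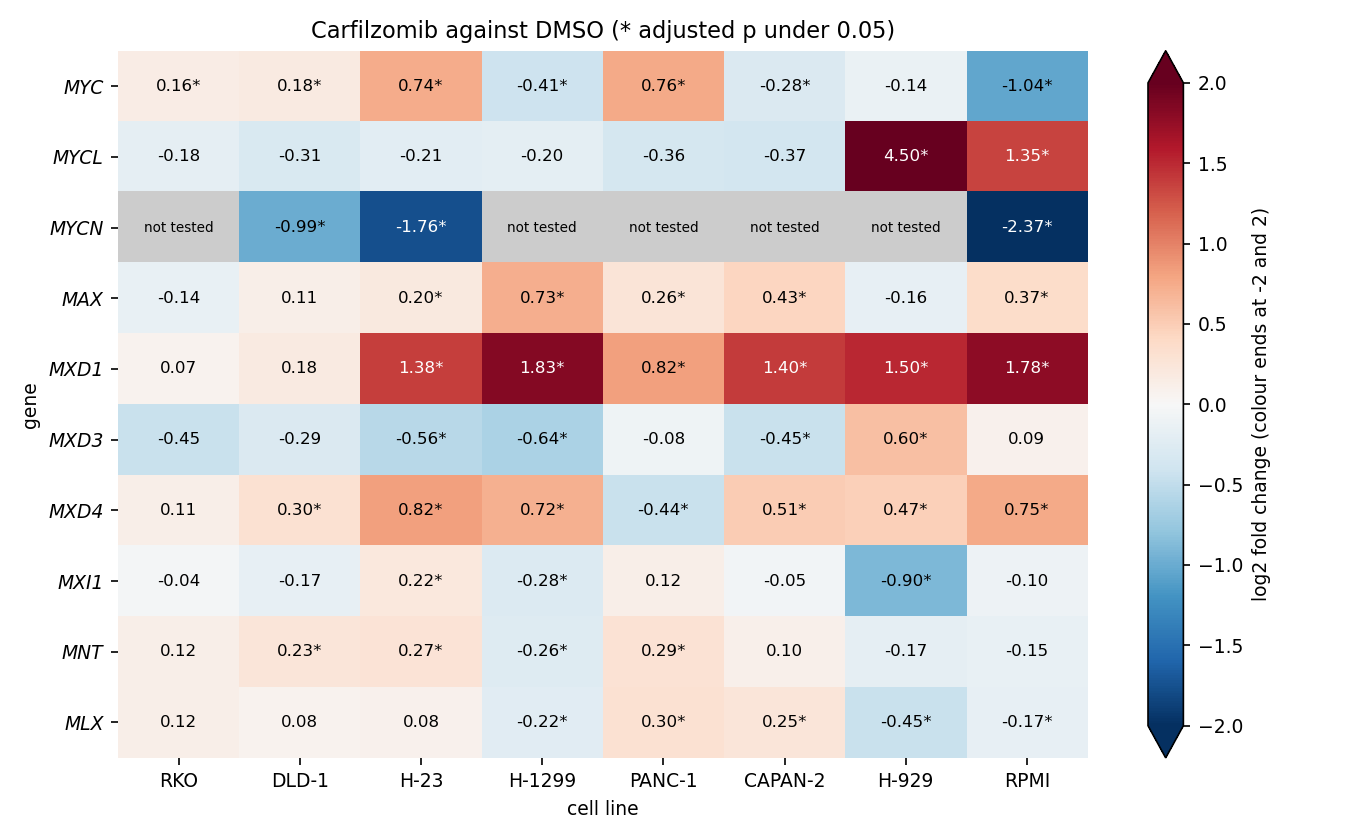
Log2 fold change of each member, carfilzomib against DMSO, in each line, with an asterisk where the adjusted p was under 0.05 and grey where the gene failed the filter on low counts. The colour scale ends at -2 and 2, so that MYCL in H-929 (4.50) and MYCN in RPMI (-2.37) lie beyond it. MXD1 is positive in all 8 lines, and MYC is positive in 4 lines and negative in 4.

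MYC rose in 4 lines, fell in 3 and had no call in H-929. In H-23 the DMSO libraries had 188, 195 and 197 CPM and the carfilzomib libraries 327, 324 and 319 CPM. That is a log2 fold change of 0.74 ± 0.0339 (SE), adjusted p = 3.29e-09, with no overlap between the treatments. In PANC-1, the line with the least MYC, the values were 71.9, 62.0 and 65.9 CPM with DMSO and 113, 109 and 116 CPM with carfilzomib, a log2 fold change of 0.76 ± 0.0498 (adjusted p = 1.59e-07). In RPMI, the line with the most MYC, it fell from 1058, 1003 and 1041 CPM to 527, 518 and 464 CPM. This was a 2.06-fold drop, log2 fold change -1.04 ± 0.0581 (adjusted p = 3.46e-09), the largest change of MYC in any line. In the other myeloma line, H-929, the libraries overlapped, with 870, 859 and 901 CPM with DMSO and 775, 735 and 883 CPM with carfilzomib, which gave -0.14 ± 0.0772 on the log2 scale (adjusted p = 0.157).

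The remaining changes of MYC were smaller. MYC fell in H-1299 from 192, 245 and 216 CPM to 160, 159 and 172 CPM (log2 fold change -0.41 ± 0.0725, adjusted p = 0.000286). It fell in CAPAN-2 from 200, 206 and 189 CPM to 155, 160 and 174 CPM (-0.28 ± 0.0604, adjusted p = 0.00118). Thus each of the lung and pancreatic pairs held a line where MYC rose and a line where it fell. In RKO it went from 590, 595 and 632 CPM to 656, 683 and 686 CPM (0.16 ± 0.0407, adjusted p = 0.0335), and in DLD-1 from 168, 153 and 154 CPM to 171, 176 and 191 CPM (0.18 ± 0.0555, adjusted p = 0.0417). The treatments did not overlap in either colon line, but the call was lost in 4 of 6 fits without 1 library in RKO, with adjusted p up to 0.14, and in 5 of 6 in DLD-1, with adjusted p up to 0.182. When all libraries entered one fit, both calls were lost. In H-929, MYC was called lower in that fit (-0.30, adjusted p = 8.61e-05), with no filter (-0.22, adjusted p = 0.0248) and without carfilzomib replicate 3 (-0.24, adjusted p = 0.0115). The fit of all libraries also moved the median of all genes in H-929 by -0.16 on the log2 scale.

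Because the lines differed in sign, the average of MYC over the 8 lines was near 0, at -0.05 ± 0.0227 with adjusted p = 0.102 in the joint fit of all libraries. Without RPMI the average was 0.10 with adjusted p = 0.000629. It was called lower without PANC-1 (-0.16), H-23 (-0.15), DLD-1 (-0.08) or RKO (-0.08), with adjusted p up to 0.0105, and with no filter (-0.06, adjusted p = 0.0443). These averages depend on scaling all libraries together. With the 8 lines as the units in limma, on changes scaled within each line, the average was -0.004 (adjusted p = 0.99). The test that the effect differs between lines gave F = 94.4 with adjusted p = 3.65e-22. That test was passed by all 10 members and by 67.7% of all genes.

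**Figure D3:**
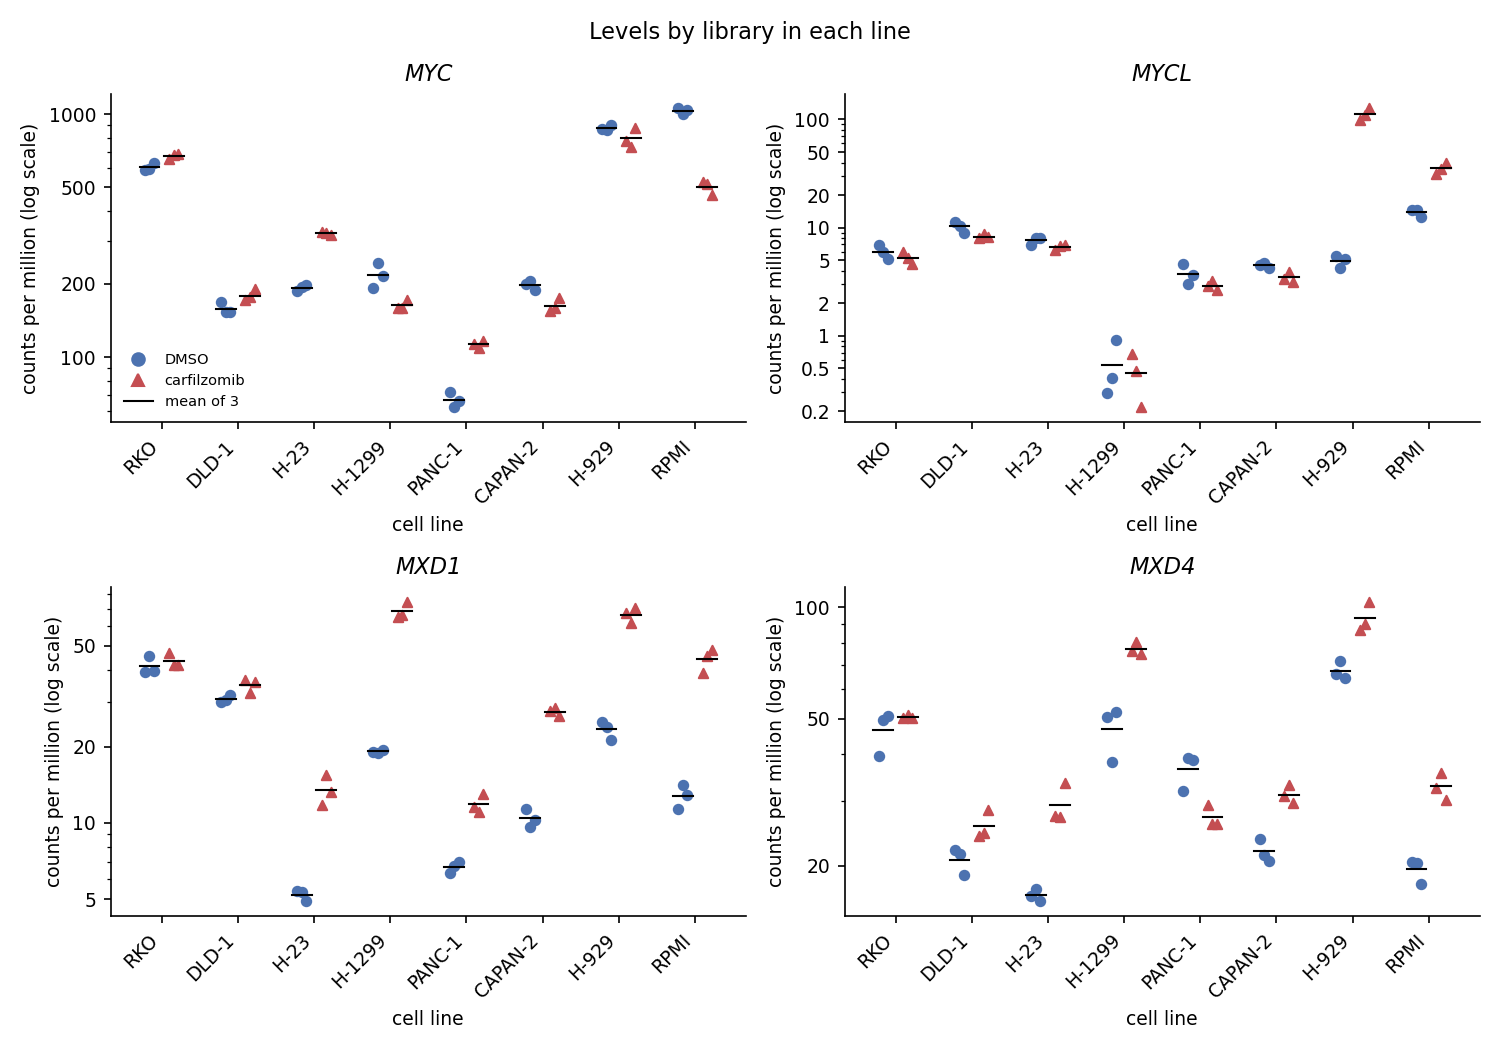
Level of MYC, MYCL, MXD1 and MXD4 in every library, in CPM on a log axis, scaled within each line, with DMSO as circles, carfilzomib as triangles and the mean of 3 libraries as a line. MYCL in H-929 moves from at most 5.42 to at least 99.0 CPM, and MXD1 lies higher with carfilzomib without overlap in every line except RKO.

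MYCL, a MYC paralog first known from lung cancer, rose in both myeloma lines and was called in no carcinoma line. In H-929 it went from 5.42, 4.23 and 5.18 CPM to 99.0, 111 and 127 CPM, or from 76 to 95 counts a library with DMSO to 980 to 1156 counts with carfilzomib. This 22.7-fold rise (log2 fold change 4.50 ± 0.139, adjusted p = 1.35e-11) was the largest change of any member in any line and ranked 255 of 15682 genes tested in H-929. In RPMI the values were 14.5, 14.6 and 12.6 CPM with DMSO and 31.5, 34.9 and 39.5 CPM with carfilzomib, a 2.55-fold rise (1.35 ± 0.101, adjusted p = 6.01e-08). In the 6 carcinoma lines the log2 fold changes lay between -0.37 and -0.18, all below 0 and none past the threshold, the lowest adjusted p being 0.0671 in DLD-1. Without 1 library MYCL was called lower in DLD-1 (-0.40, adjusted p = 0.018, without DMSO replicate 3) and in PANC-1 (-0.50, adjusted p = 0.043, without DMSO replicate 2). The average of MYCL over the lines, 0.50 ± 0.0729 (adjusted p = 1.22e-07), rested on H-929, since without that line it was -0.06 with adjusted p = 0.686. The effect on MYCL differed between lines (F = 79.2, adjusted p = 7.62e-21).

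Of 3 genes around MYCL, its antisense RNA was called higher in the myeloma lines and the other 2 were not. TRIT1, which begins 11.9 kb downstream, fell in H-929 from 23.2 ± 3.19 to 16.9 ± 2.25 CPM (SD, n = 3). Its log2 fold change was -0.46 there (adjusted p = 0.0224) and -0.02 in RPMI (adjusted p = 0.818). PPT1, 169.2 kb upstream, fell by 0.90 in H-929, 1.27 in RPMI and 0.46 in CAPAN-2 on the log2 scale. MYCL-AS1, which overlaps MYCL on the other strand, rose from 0 to 2 counts a library to 69 to 108 counts in H-929 (adjusted p = 2.43e-07) and from 2 to 4 counts to 21 to 30 counts in RPMI (adjusted p = 2.14e-05). Whether strand was used in counting is not given in the sources used here, so reads of MYCL and MYCL-AS1 cannot be told apart. Even with this rise, MYCL was a minor share of the MYC family in H-929, 0.333% ± 0.0389 of the summed level per kb with DMSO and 7.68% ± 0.595 with carfilzomib (SD, n = 3).

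MYCN, the paralog known from neuroblastoma, fell in all 3 lines where it was abundant enough to test. In RPMI it dropped from 16.3, 16.3 and 13.5 CPM to 3.42, 2.81 and 2.67 CPM, or from 280 to 498 counts to 60 to 62 counts. That was a 5.18-fold fall (log2 fold change -2.37 ± 0.153, adjusted p = 1.34e-08), in the line where MYC also fell and MYCL rose. In H-23 it fell from 1.88, 2.26 and 1.72 CPM to 0.810, 0.429 and 0.539 CPM (-1.76 ± 0.271, adjusted p = 0.000188). In DLD-1 it fell from 1.56, 1.03 and 1.62 CPM to 0.766, 0.514 and 0.855 CPM (-0.99 ± 0.275, adjusted p = 0.0255), a call that 4 of 6 fits without 1 library lost. MYCNOS, on the other strand at the same locus, had 12 to 38 counts in RPMI with DMSO and 14 to 15 with carfilzomib (log2 fold change -0.25, adjusted p = 0.568). The effect on MYCN differed between lines with F = 3.76 and adjusted p = 0.00852, in a fit where 3 lines had no count at all.

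MAX, the shared partner, rose in 5 lines and fell in none. The rise was largest in H-1299, from 34.3, 37.7 and 35.7 CPM to 52.9, 63.3 and 61.9 CPM (log2 fold change 0.73 ± 0.0723, adjusted p = 1.82e-06). In CAPAN-2 it went from 49.7, 53.0 and 50.3 CPM to 66.2, 69.7 and 70.7 CPM (0.43 ± 0.0576, adjusted p = 1.79e-05), and in RPMI from 40.1, 37.9 and 40.3 CPM to 51.1, 52.7 and 49.1 CPM (0.37 ± 0.0622, adjusted p = 0.000148). MAX also rose in PANC-1 by 0.26 and in H-23 by 0.20 on the log2 scale. RKO had -0.14, DLD-1 0.11 and H-929 -0.16, none called. In one fit of all libraries MAX was called lower in H-929 (-0.32, adjusted p = 8.17e-05). That fit also moved the median of all genes in H-929 by -0.16. The average over the lines was 0.18 ± 0.0216 (adjusted p = 6.4e-10), in a test that called 19.8% of all genes higher and 23.9% lower.

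MXD1, an antagonist of MYC that is known to rise as cells leave the cycle and differentiate, rose past the threshold in 6 lines and fell in none, while 3.51% of the 11622 genes tested in all lines were higher in at least 6 and lower in none. In H-1299 it rose from 19.1, 18.9 and 19.4 CPM to 64.7, 65.9 and 74.4 CPM, 3.56-fold (log2 fold change 1.83 ± 0.0664, adjusted p = 3.37e-10). In RPMI it rose from 11.3, 14.1 and 12.9 CPM to 38.98, 45.3 and 48.3 CPM, 3.44-fold (1.78 ± 0.101, adjusted p = 3.96e-09). H-929 followed with 25.1, 23.9 and 21.2 CPM against 67.3, 61.3 and 70.6 CPM, 2.83-fold (1.502 ± 0.112, adjusted p = 8.75e-08). In these 3 lines the carfilzomib libraries all lay above every DMSO library.

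Smaller MXD1 rises came from the remaining lung and pancreatic lines. In CAPAN-2 it went from 11.3, 9.66 and 10.2 CPM to 27.8, 28.3 and 26.5 CPM (1.40 ± 0.081, adjusted p = 3.57e-09). In H-23, the line with the least MXD1, it went from 5.37, 5.35 and 4.92 CPM to 11.8, 15.4 and 13.3 CPM (1.38 ± 0.117, adjusted p = 8.17e-07). In PANC-1 it went from 6.32, 6.78 and 6.996 CPM to 11.6, 11.01 and 12.97 CPM (0.82 ± 0.0978, adjusted p = 2.52e-05). The colon lines, where MXD1 was highest without drug, had no call. DLD-1 had 30.1, 30.5 and 32.1 CPM against 36.6, 32.4 and 35.9 CPM, which did not overlap (0.18 ± 0.0629, adjusted p = 0.0648). MXD1 was called higher in DLD-1 with library totals, with the filter of a mean of at least 50 counts, and without DMSO replicate 3 or carfilzomib replicate 2, at adjusted p from 0.0302 to 0.0477. RKO had 39.4, 45.5 and 39.9 CPM against 46.7, 41.9 and 41.96 CPM, which overlapped (0.07 ± 0.0789, adjusted p = 0.672).

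The average rise of MXD1 over the lines was 1.08 ± 0.0327 on the log2 scale (adjusted p = 6.26e-30), and it stayed between 0.98 and 1.22 without any 1 line. MXD1 was also the only member to pass when the 8 lines were taken as the units in limma, with an average of 1.12 and adjusted p = 0.046, a test that called 0.49% of 11622 genes higher and 0.387% lower. The size of the rise differed between lines (F = 55.4, adjusted p = 3.18e-18). In GENCODE 29 (GRCh38), MXD1 spans chr2:69897688-69942945 and overlaps SNRNP27, a splicing factor gene on the same strand. SNRNP27 rose in 5 of the 6 lines where MXD1 rose, by 0.74 in H-1299, 0.77 in RPMI, 0.67 in CAPAN-2, 0.30 in PANC-1 and 0.19 in H-23 on the log2 scale, less than MXD1 in each. In H-929 it had 0.04 (adjusted p = 0.76).

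MXD4 rose in 6 lines and fell in 1, while 4.06% of genes tested in all lines were higher in at least 6. The rise was largest in H-23, from 16.6, 17.3 and 16.1 CPM to 27.3, 27.1 and 33.4 CPM (log2 fold change 0.82 ± 0.0821, adjusted p = 3.81e-06). RPMI went from 20.5, 20.4 and 17.8 CPM to 32.5, 35.7 and 30.1 CPM (0.75 ± 0.0904, adjusted p = 6.77e-06), and H-1299 from 50.5, 38.1 and 52.0 CPM to 76.1, 80.7 and 74.6 CPM (0.72 ± 0.0935, adjusted p = 2.2e-05). CAPAN-2 rose by 0.51, H-929 by 0.47 and DLD-1 by 0.30 on the log2 scale, the last a call that 3 of 6 fits without 1 library lost. PANC-1 went the other way, from 31.9, 39.2 and 38.7 CPM to 29.2, 25.9 and 26.01 CPM (-0.44 ± 0.0764, adjusted p = 0.000521), with no overlap. The average over the lines was 0.36 ± 0.0364 (adjusted p = 6.89e-12), with a difference between lines (F = 15.4, adjusted p = 2.41e-09).

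MXD3, the member of the MXD family known to be expressed in cycling cells, moved mostly downward. It fell in H-1299 from 22.9, 19.6 and 21.7 CPM to 14.2, 14.3 and 12.7 CPM (-0.64 ± 0.0884, adjusted p = 3.76e-05), in H-23 by 0.56 and in CAPAN-2 by 0.45 on the log2 scale. In H-929 it rose from 17.1, 15.6 and 17.4 CPM to 24.8, 22.2 and 28.8 CPM (0.60 ± 0.14, adjusted p = 0.0025). RKO (-0.45), DLD-1 (-0.29), PANC-1 (-0.08) and RPMI (0.09) had no call, although one fit of all libraries called RKO lower (adjusted p = 0.042) and the fit without DMSO replicate 3 called DLD-1 lower (adjusted p = 0.00158). The average was -0.26 ± 0.0435 (adjusted p = 1.54e-06), and the lines differed with F = 8.81 and adjusted p = 2.72e-06. With the 8 lines as the units in limma, the average had adjusted p = 0.336. RAB24, which overlaps MXD3 on the same strand, rose in H-929 from 114.5 ± 8.45 to 197.9 ± 21.56 CPM (SD, n = 3). Its log2 fold change was 0.79 there (adjusted p = 7.58e-06), 0.67 in RPMI, where MXD3 had no call, and -0.24 in H-23. Whether reads of RAB24 and MXD3 are shared was not tested.

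MXI1, also called MAX interactor 1, had its main change in H-929. There it fell from 59.1, 61.4 and 55.0 CPM to 30.1, 25.8 and 38.4 CPM, 1.86-fold (-0.90 ± 0.134, adjusted p = 6.35e-05). In RPMI, where its DMSO level was higher, the libraries overlapped, with 66.0, 62.0 and 59.8 CPM against 56.6, 62.5 and 56.4 CPM (-0.10 ± 0.0622, adjusted p = 0.198). MXI1 was also called lower in H-1299 (-0.28, adjusted p = 0.0135, lost without carfilzomib replicate 2) and higher in H-23 (0.22, adjusted p = 0.0221), where the treatments overlapped and 4 of 6 fits without 1 library lost the call. The other 4 lines had log2 fold changes from -0.17 to 0.12 and no call. The average was -0.19 ± 0.0304 (adjusted p = 7.03e-07), with a difference between lines (F = 18.7, adjusted p = 1.42e-10).

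MNT, the broadly expressed MAX-binding repressor, changed little. The largest rise was in PANC-1, from 24.6, 25.1 and 25.3 CPM to 29.4, 29.2 and 33.1 CPM (0.29 ± 0.0575, adjusted p = 0.00133). It also rose in H-23 by 0.27 and in DLD-1 by 0.23 on the log2 scale, and it fell in H-1299 by 0.26. The calls in DLD-1 and H-1299 were lost in 3 and 4 of 6 fits without 1 library. The remaining 4 lines had values between -0.17 and 0.12 and no call, although in one fit of all libraries MNT was called lower in H-929 (-0.34, adjusted p = 0.00102) and RPMI (-0.23, adjusted p = 0.0429). That fit also moved the median of all genes by -0.16 in H-929 and -0.08 in RPMI. The average was 0.01 ± 0.0311 (adjusted p = 0.951), with a difference between lines (F = 8.78, adjusted p = 2.82e-06).

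MLX, the partner shared with the sugar-sensing factors, went in opposite directions in the pancreatic and the myeloma lines. It rose in PANC-1 from 32.8, 29.6 and 34.7 CPM to 40.8, 38.95 and 39.7 CPM (0.30 ± 0.0583, adjusted p = 0.00126) and in CAPAN-2 from 39.2, 38.5 and 36.5 CPM to 45.1, 44.1 and 46.4 CPM (0.25 ± 0.0582, adjusted p = 0.00245). It fell in H-929 from 82.8, 87.2 and 81.2 CPM to 65.5, 58.5 and 59.8 CPM (-0.45 ± 0.0904, adjusted p = 0.000761). The falls in RPMI (-0.17, adjusted p = 0.0298) and H-1299 (-0.22, adjusted p = 0.0214) were small, and 4 and 2 of 6 fits without 1 library lost them. RKO, DLD-1 and H-23 had values between 0.08 and 0.12 and no call. The average was -0.04 ± 0.0196 (adjusted p = 0.0666). It was called lower with no filter (-0.06, adjusted p = 0.0479) and without RKO, DLD-1, H-23, PANC-1 or CAPAN-2 (-0.09 to -0.06, adjusted p up to 0.0286), and the difference between lines had F = 30.8 and adjusted p = 5.81e-14. PSMC3IP, which overlaps MLX on the other strand, rose by 0.92 in H-929, 0.78 in RPMI and 0.29 in H-1299 and fell by 0.74 in CAPAN-2 on the log2 scale.

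The other genes of the wider network were MLXIP, MLXIPL and MGA, of which the joint average called 0 of 3 higher and 2 lower with edgeR. MGA, a large MAX-binding repressor, fell in both myeloma lines. In RPMI it went from 171, 169 and 155 CPM to 94.4, 97.6 and 98.9 CPM (-0.77 ± 0.055, adjusted p = 4.04e-08), and in H-929 from 184, 205 and 208 CPM to 136, 138 and 133 CPM (-0.55 ± 0.0782, adjusted p = 3.88e-05). It fell by 0.20 in H-1299 and 0.14 in CAPAN-2, and the other 4 lines had no call. MLXIPL rose in H-929 from 8 to 11 counts a library to 31 to 47 counts (2.85 ± 0.436, adjusted p = 7.98e-05) and fell in CAPAN-2 by 0.74 and in H-23 by 0.56. MLXIP fell by 0.53 in H-1299 and 0.33 in PANC-1, a value that is uncertain because its identifier is shared by another row.

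TXNIP and ARRDC4, arrestin-like genes that are direct targets of MondoA and MLX, did not move together. TXNIP fell in PANC-1 from 39.6, 39.6 and 41.9 CPM to 27.6, 23.7 and 16.9 CPM (-0.83 ± 0.121, adjusted p = 0.00013). It also fell in CAPAN-2 by 0.41 and in DLD-1 by 0.42, the last with overlapping treatments (adjusted p = 0.0463). It rose in H-929, from 175 ± 49.9 to 267 ± 24.97 CPM (SD, n = 3; 0.61, adjusted p = 0.00374). TXNIP had 0 counts in all 6 libraries of H-1299, where 3 counts correspond to at most 0.133 CPM. ARRDC4 rose in CAPAN-2 from 14.9, 17.1 and 15.3 CPM to 46.9, 45.7 and 43.9 CPM (1.53 ± 0.0688, adjusted p = 3.31e-10), where TXNIP fell, and by 0.79 in H-23, 0.76 in H-1299 and 0.44 in RPMI.

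The ratio of MYC to MXD1, each per kb of exon, puts the opposed changes in one number per library. In RPMI it fell from 197, 151 and 171 to 28.6, 24.2 and 20.3, and in H-929 from 73.5, 76.0 and 89.8 to 24.4, 25.4 and 26.5. In H-1299 it fell from 21.3, 27.3 and 23.5 to 5.22, 5.11 and 4.88, and in CAPAN-2 from 37.3, 45.2 and 38.97 to 11.8, 11.96 and 13.9. In these 4 lines the carfilzomib libraries lay well below the DMSO libraries. H-23 went from 78.7 ± 5.59 to 51.3 ± 7.12 (SD, n = 3), also without overlap, although MYC itself rose there. The ratio was 30.96 ± 3.004 and 32.9 ± 2.76 in RKO, 10.9 ± 0.856 and 10.9 ± 0.852 in DLD-1, and 21.1 ± 2.57 and 20.2 ± 1.11 in PANC-1, with overlapping libraries. No test was run on this ratio.

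Against the sum of all 5 antagonists the falls were smaller. The summed level of MYC, MYCL and MYCN over that of MXD1, MXD3, MXD4, MXI1 and MNT was 14.8 ± 0.727 with DMSO and 5.90 ± 0.478 with carfilzomib in RPMI (SD, n = 3), 3.54 ± 0.651 and 1.82 ± 0.0346 in H-1299, 3.35 ± 0.254 and 2.44 ± 0.125 in CAPAN-2, and 7.94 ± 0.246 and 6.82 ± 0.0517 in H-929. In the lines where MYC rose it went up, from 4.24 ± 0.294 to 5.62 ± 0.390 in H-23 and from 1.38 ± 0.168 to 2.23 ± 0.0339 in PANC-1. In the colon lines it was 5.86 ± 0.393 and 6.39 ± 0.281 for RKO and 2.44 ± 0.112 and 2.70 ± 0.0922 for DLD-1. MXD1 made up 14.6% ± 0.826 of the antagonists' summed level in H-1299 with DMSO and 35.8% ± 1.79 with carfilzomib, and 8.41% ± 0.876 and 23.3% ± 2.20 in RPMI.

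**Figure D4:**
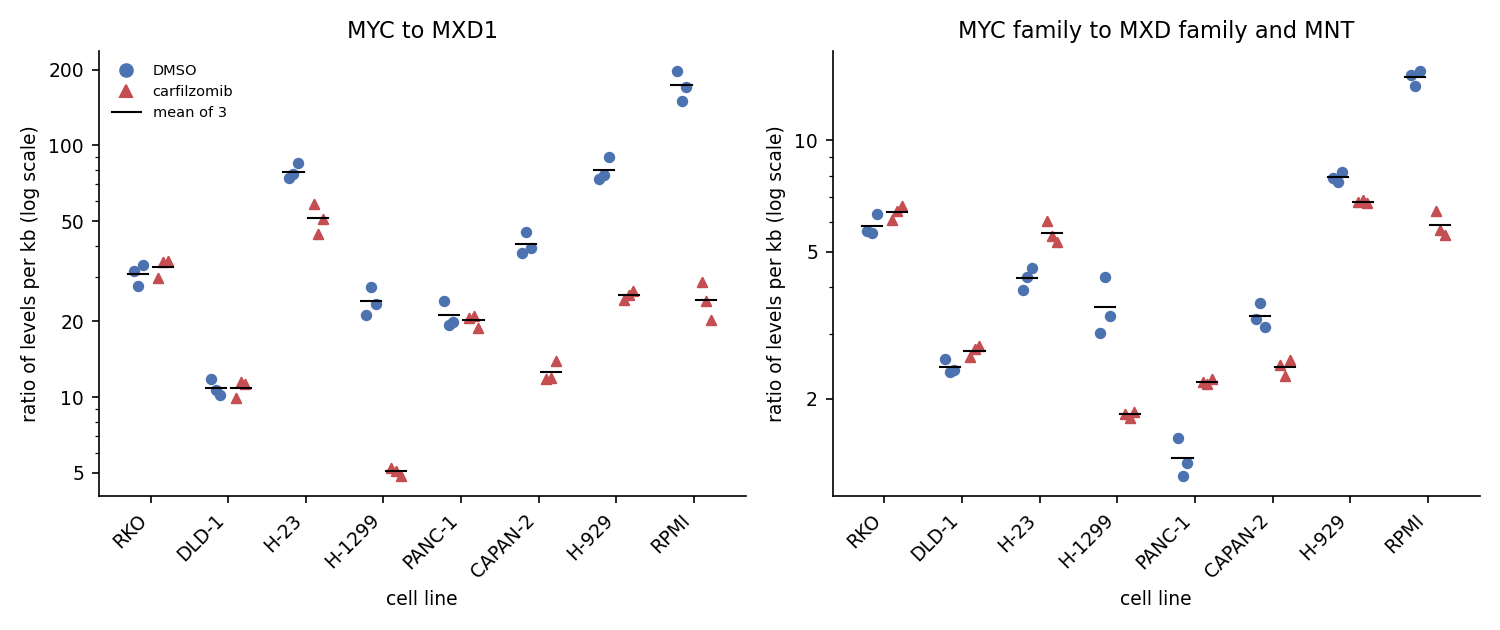
Ratio of MYC to MXD1 (left) and of the MYC family to the MXD family and MNT (right) in every library, from levels per kb of exon, on a log axis. In RPMI the MYC to MXD1 ratio goes from a mean of 173 with DMSO to 24.4 with carfilzomib, while RKO, DLD-1 and PANC-1 overlap.

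Genes that MYC is known to activate were followed in a list of 68, of which 66 had a usable average. Of these, 48 were lower and 6 higher on average over the lines, where 23.9% of all genes were lower and 19.8% higher. In limma on one value per line, 0 of 64 passed as lower, where 0.387% of all genes did. At an unadjusted p under 0.05, 18 were lower, a count without a baseline, since the share of all genes there was not counted. The median of the list was -0.23 on the log2 scale, and that of all genes was 0.02. By line, the lower calls were most frequent in the myeloma lines. In H-929, 47 of 66 were called lower and 5 higher, with a median of -0.55, and in RPMI 52 of 64 were lower and 9 higher, with a median of -0.47. CAPAN-2 had 38 of 66 lower and 12 higher (median -0.27), and H-1299 had 34 lower and 13 higher (median -0.20). In PANC-1 the list went the other way, with 30 of 66 higher and 8 lower and a median of 0.11. In H-23 the counts were 16 higher and 14 lower, in DLD-1 11 and 14, and in RKO 2 and 9, with medians between -0.03 and 0.00. The median of all genes lay between -0.02 and 0.03 in every line. Of all genes, 26.2% were called lower in H-929, 32.2% in RPMI, 26.7% in CAPAN-2 and 31.3% in H-1299. In PANC-1, 20.5% of all genes were higher and 18.2% lower. The higher and lower shares of all genes were 17.7% and 16.2% in H-23, where the list had 24.2% and 21.2%. They were 10.9% and 12.1% in DLD-1, where the list had 16.7% and 21.2%, and 3.62% and 5.28% in RKO.

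The change of MYC (log2) and the median of the target list had, over the 8 lines, a Pearson r of 0.784 and a Spearman rho of 0.81, as a description of 8 points that share their libraries and scaling. H-929 stood apart from that order, with the lowest target median and a MYC change of -0.14, and in H-23 MYC rose by 0.74 while the target median was 0.00.

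**Figure D5:**
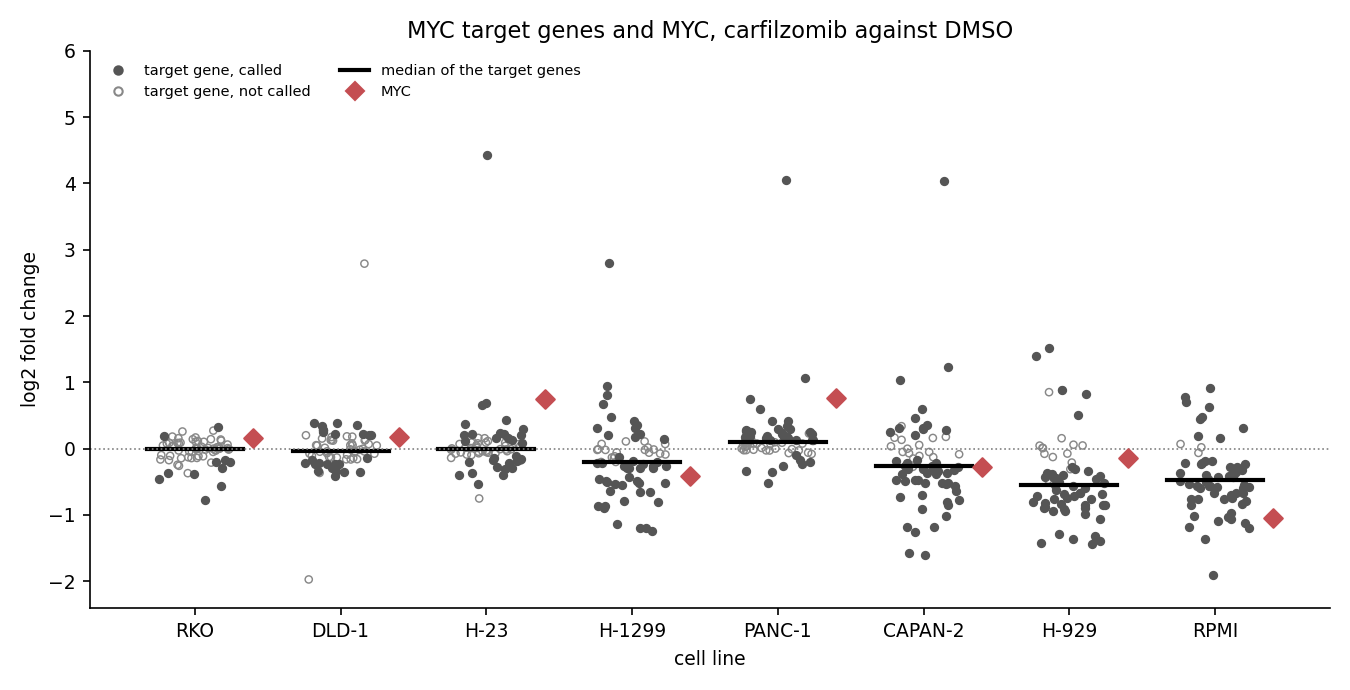
Log2 fold change of each MYC target gene (filled where called), their median (bar) and MYC (diamond) in each line. The target median is -0.55 in H-929 and 0.11 in PANC-1. The points above 2 are FBL in H-23 and DLD-1 and IPO4 in H-1299, PANC-1 and CAPAN-2, which are uncertain because a second row carries the same identifier.

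Among single-row target genes, the largest average falls were those of MCM4, a subunit of the replicative helicase (-0.71 ± 0.0196, lower in 7 of 8 lines), SLC19A1, the reduced folate carrier (-0.62 ± 0.0381, lower in 4), and TFRC, the transferrin receptor (-0.56 ± 0.028, lower in 5 and higher in 1). MCM4 fell most in CAPAN-2, by 1.61, SLC19A1 in H-929, by 1.32, and TFRC in RPMI, by 1.91. The largest rises were those of the ribosome assembly factors RRP12 (0.55 ± 0.021, higher in 7 lines), MPHOSPH10 (0.33 ± 0.0218, higher in 5) and WDR74 (0.21 ± 0.0439, higher in 4). RRP12 and MPHOSPH10 rose most in CAPAN-2, by 1.23 and 1.04, a line where MYC fell. Of the 66 genes tested, 34 were called lower in at least 4 lines and 7 higher in at least 4, against 19% and 17.9% of genes tested in every line, and 39 were called in both directions in different lines, as were 47.8% of those genes.

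Of 10 genes known to be repressed by MYC, 9 had a usable average, of which 6 were higher and 1 lower, with a median of 0.56, where 19.8% of all genes were higher and 23.9% lower. GADD45A, a stress and growth arrest gene, rose on average by 0.87 ± 0.0228 and in 6 lines, most in H-929 (2.08). CEBPA, a differentiation factor, averaged 0.81 ± 0.0795 and was higher in 3 lines, with 3.67 in H-929. GADD45B averaged 0.59 ± 0.0392, higher in 3 lines and lower in 2. NDRG2 averaged -0.51 ± 0.134 and was lower in 3 of 6 lines tested. In H-929, 7 of 10 were higher and 1 lower, where 26.4% of all genes were higher, and in RPMI 7 of 8 were higher and 1 lower, where 31.3% were. H-1299 and CAPAN-2 each had 5 of 8 higher, where 29.8% and 25.7% of all genes were, and H-1299 had 2 lower. The other lines showed no such excess of rises. RKO had 0 of 8 higher and 2 lower, against 3.62% and 5.28% of all genes. DLD-1 had 3 of 9 higher and 2 lower (10.9% and 12.1%), and H-23 had 3 of 9 higher and 1 lower (17.7% and 16.2%). PANC-1 had 2 of 7 higher and 2 lower (20.5% and 18.2%). The medians of RKO, DLD-1 and H-23 lay between -0.09 and -0.02. GADD45A is also a known target of p53 and of ATF4.

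Of 16 genes that control the stability of MYC protein, 3 were higher and 9 lower on average, where 19.8% of all genes were higher and 23.9% lower, so the share of higher calls was close to that of all genes. SKP2, a ubiquitin ligase subunit, had the largest fall (-0.60 ± 0.0217, lower in 6 lines, most in RPMI at -1.50). SET, an inhibitor of the phosphatase PP2A, fell by 0.45 and was lower in 7 lines, and USP28, a deubiquitinase, fell by 0.29. FBXW7 and HUWE1, ubiquitin ligases for MYC, and GSK3B, the kinase that marks MYC for FBXW7, rose by 0.18, 0.17 and 0.14. All 3 had their largest value in H-1299, at 0.60, 0.56 and 0.46, and GSK3B was also called lower in 1 line (-0.15 in DLD-1).

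Of 14 cofactors of MYC and the MXD proteins, 3 were higher and 8 lower on average, against the same shares of all genes, 19.8% and 23.9%. SIN3B, a scaffold of the repressor complex used by the MXD proteins, rose by 0.31 ± 0.0215 and in 6 lines, most in RPMI (0.99). ZBTB17 (MIZ1), a partner of MYC in repression, rose by 0.24. The deacetylase HDAC2 fell by 0.25, most in H-929 (-1.06), WDR5 by 0.20 and the acetyltransferase KAT2A by 0.18. HDAC2, KAT2A and ZBTB17 were called in both directions in different lines, ZBTB17 higher in 4 and lower in 1.

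The genes whose profile over the 8 lines was most like that of MYC were ranked by Pearson r among 6359 genes tested in every line and called in at least 4. Among the highest were PDCD5 (r = 0.966), ARL6IP5 (0.955), DUSP5 (0.954) and S100A11 (0.944). Of these, DUSP5, a phosphatase of ERK, had changes as large as MYC, with 1.48 in H-23, 0.93 in PANC-1, 0.74 in DLD-1 and -1.34 in RPMI. The most opposed profiles were those of KIAA0825 (-0.956), SMG5 (-0.95), DELE1 (-0.942), ZNF91 (-0.942) and ADPRM (-0.932). The log2 fold change of KIAA0825 was 1.83 in RPMI, 1.60 in CAPAN-2, 1.47 in H-1299 and 1.21 in H-929, and it was 0.46 in RKO and 0.64 in DLD-1, where MYC was called higher. These values describe 8 points and were picked from the 6359.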

How the data were processed

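The authors deposited one matrix of raw counts per gene for 48 libraries, with no normalization. Per the labels' protocols these were stranded total RNA libraries, and the submitters' processing notes name bcl2fastq 2.19, FastQC, Trimmomatic, HISAT2, DESeq2 and build hg38. The counting program, its annotation and its use of strand are not given in the sources used here. Gene positions and exon lengths came from GENCODE 29, which matched 87.6% of 33892 rows by identifier, and 4803 rows share an identifier with another row. No 2 replicates agreed within sampling noise, the lowest chi-square over its degrees of freedom being 3.47 in 48 pairs, so none were merged.

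Each line was tested on its 6 libraries with edgeR 4.0.16 in R 4.3.3 (TMM, filterByExpr, quasi-likelihood F test, Benjamini-Hochberg adjusted p under 0.05 over all genes). CPM is the count divided by the library total times its TMM factor, within a line or, for levels across lines and ratios, over all libraries. A joint fit of 16 groups, with trended dispersion, gave the average, the difference between lines and the DMSO levels, and its error is the spread between replicates and not between lines. It scales all libraries together. For every member with both values, its average lay below that of limma on changes scaled within each line. The average of MYCN could not be estimated because 3 lines had no count. Depth sets the counting error and also enters the filter on low counts. Its part in the results was not tested. The fits were also run on simulated counts with a fixed dispersion and far fewer changed genes than were called here. That run therefore does not cover shifts as wide as those in these data.

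The alternatives changed the scaling (DESeq2's size factors or library totals), the filter (none, or a mean count of 50 or more), the test (DESeq2 1.42.0, or a null of a 1.5-fold change) or the model (a replicate block, or one fit of all libraries). Others left out each library, replicate number or line, or took lines as units in limma 3.58.1. Replicate numbers were not taken as pairs.

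The members and lists were chosen with earlier results of these data known. The text names the 10 members and 5 further network genes, the 3 largest average rises and falls among called single-row genes of each list, and the 5 genes most like and most opposed to MYC over the lines, apart from some that are not reported here.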

Additional observations from a re-analysis of the deposited data

Results flagged for a closer look

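For all 10 members the effect of carfilzomib differed between the 8 lines in edgeR's joint fit, by a test of the difference itself, which 67.7% of all genes also passed. The F statistic was 94.38 for MYC, which rose in 4 lines and fell in 3, and 79.16 for MYCL, which rose in H-929 and RPMI. It was 55.39 for MXD1, called in the 6 lines other than the colon lines, 30.81 for MLX, 25.29 for MAX, 18.68 for MXI1 and 15.35 for MXD4, which fell in PANC-1 and rose in 6 lines. It was 8.811 for MXD3 and 8.784 for MNT. For MYCN it was 3.755, with adjusted p = 0.00852, and 9 members rather than 10 passed without replicate 1, without H-929, without RPMI or under a filter of a mean of at least 50 counts.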

How the results depend on the processing

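Of 46 called member changes in a line, all kept their call with DESeq2's size factors, library totals and no filter, 43 of 45 with an adjusted p in DESeq2's Wald test, and 40 in one fit of all libraries, and 36 kept it in every fit without 1 library. No called change of a member in a line changed direction in any alternative run. Against a null fold change of 1.5, 9 member calls were higher in place of 30, 4 lower in place of 16, and 57 target gene calls were lower in place of 216. Without 1 library these counts ran from 28 to 30, from 13 to 17 and from 210 to 219. With cell lines as the units, limma called 1 member in place of 6, and 2 members had an unadjusted p under 0.05. It called 0 target genes lower in place of 48, and 18 of 64 were lower at an unadjusted p under 0.05. The share of all genes at that unadjusted p was not counted. The average of MYC turned to 0.10 without RPMI (adjusted p = 0.000629) but was called lower without RKO, DLD-1, H-23 or PANC-1 and with no filter, and that of MYCL to -0.059 without H-929 (adjusted p = 0.686). With cell lines as the units, the averages of MYC and MLX were -0.004 and -0.003. Library totals raised the share of calls that were higher from 40.6% to 60.9% in RKO and from 47.5% to 60.3% in DLD-1, where they also called MXD1 higher (0.22, adjusted p = 0.0302). One fit of all libraries lowered that share from 50.2% to 39.4% in H-929 and moved the median of all genes there by -0.16, in the same direction as the added lower calls of MYC, MAX and MNT. In RPMI it moved that median by -0.08, in the same direction as the added lower call of MNT. The cause was not tested.

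The replicate numbers were not taken as pairs. Same-numbered libraries correlated between -0.0608 and 0.148, and 0 of 8 lines had all 3 values over 0.1. In PANC-1 the values were 0.1, 0.0832 and 0.0946, and such weak values cannot show that no pairing existed. With the replicate number as a block, 27 member calls were higher and 16 lower, and the calls of MYC, MXD4 and MNT in DLD-1 were lost. MYCN in H-23 and DLD-1 and MYCL in H-1299 rest on fewer than 100 counts a library, which limits their precision.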

Other observations

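Some target genes outside the naming rule were looked up after their values had been seen. NPM1 and NCL, abundant nucleolar proteins, were called lower in 5 and 4 lines and higher in none. ODC1, the first enzyme of polyamine synthesis, was higher in 2 lines and lower in 2. HSPD1 and HSPE1, the mitochondrial chaperonin and its lid, were higher in 4 and 3 lines and lower in 2 and 1. DUSP2, a phosphatase of MAP kinases, rose in H-929 (log2 fold change 1.51 ± 0.144 by edgeR, adjusted p = 9.7e-07), where most of the list fell, in PANC-1 (1.07 ± 0.196, adjusted p = 0.000774) and in H-23 (0.69 ± 0.0572, adjusted p = 6.72e-07). It fell in H-1299 (-1.14 ± 0.336, adjusted p = 0.0105) and in CAPAN-2 (-0.84 ± 0.282, adjusted p = 0.0207). MYCNOS had 0 counts in the 3 DMSO libraries of H-929 and 7 to 19 counts with carfilzomib, while MYCN there had 0 to 2 and 0 to 6 counts, and neither was abundant enough to test.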
